A study of Columba livia with 18 samples.

Results

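The genes described here are 10 genes of the hair cell ribbon synapse, otoferlin (OTOF), SLC17A8, CACNA1D, CACNB2, CTBP2, BSN, PCLO, RIMS1, RIMS2 and RIMBP2. They were found by the gene symbol that the annotation of the deposited table gives to each pigeon gene model, and all 10 symbols were found, on 24 of the 20918 gene models. The libraries came from the basilar papilla, the hearing epithelium, of 9 pigeons (Columba livia) aged 1 year, after removal of the lagena and light trypsinization of the cochlear duct. From each bird a pool of 30 hair cells with cuticulosomes and a pool of 30 hair cells without cuticulosomes were picked under the microscope, and each pool gave 1 library, 18 in all. The cuticulosome is an organelle rich in iron that sits in the cuticular plate, the actin mesh under the hair bundle. The labels name no treatment and no genetic change, and the groups are defined by whether the picked cells held the organelle. The birds fall into 3 flow cells of 3 birds each, as the library names show. The comparison asks whether hair cells with cuticulosomes carry another level of the RNA of the release machinery than hair cells without them from the same bird.

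Hair cells of the ear release glutamate onto the endings of the afferent nerve at ribbon synapses, where an electron-dense ribbon holds vesicles close to clustered L-type calcium channels. Sound opens the channels through the hair cell's receptor potential, and the incoming calcium starts the fusion of vesicles with the membrane. In the mouse, loss of otoferlin abolishes nearly all of this release and loss of SLC17A8 leaves the vesicles without glutamate, and both cause deafness.

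Several facts of the libraries touch the values that follow. The table gives FPKM (fragments scaled to transcript length and to the mapped fragments of a library that fit the annotation). It gives no counts per library, so how many reads stand behind a single value is unknown. Relative depth, estimated from the spacing of the lowest FPKM values, ran from 0.505 for the library with cuticulosomes of pigeon 450 to 1.43 for that of pigeon 435 and for the library without cuticulosomes of pigeon 451, where 1 is the geometric mean of the libraries, and in 81.0% of the 153 library pairs the depth ratio read from the pair itself lay within 0.1 on the log2 scale of the ratio of these values. The library with cuticulosomes of pigeon 435 had the lowest sum over the hair cell marker list, 1476 FPKM against 7268 to 19482 FPKM in the other libraries with cuticulosomes, and the highest sum over the supporting cell list, 4512 FPKM. Its sum over the Schwann cell list was 2281 FPKM, while no other library exceeded 47.5 FPKM. The bird's library without cuticulosomes had a red blood cell sum of 37332 FPKM, against at most 4690 FPKM in any other library. Of the libraries without cuticulosomes, that of pigeon 513 had the lowest hair cell sum, 4048.5 FPKM, and that of pigeon 435 followed at 7068 FPKM. The part of these other cells in the values of the ribbon synapse genes was not tested. The library with cuticulosomes of pigeon 450 had 6 of the 24 ribbon synapse gene models above 1 FPKM, and every other library had 11 to 19. Results are therefore also given without these 2 birds, a choice made after the values were seen. In pools of cells, fewer cells of a type and less RNA per cell cannot be told apart.

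Several of the genes are split over more than 1 gene model, and reads could be divided between the parts. PCLO had 6 models, RIMS1, RIMS2 and CACNA1D had 3 each, OTOF, CACNB2 and CTBP2 had 2 each, and SLC17A8, BSN and RIMBP2 had 1 each. The 3 RIMS2 models lie next to each other on scaffold 775, the 3 RIMS1 models on scaffold 102, 4 of the PCLO models on scaffold 366, 2 of the CACNA1D models on scaffold 1373 and both CACNB2 models on scaffold 536. As a check of the names, the nearest named genes on each scaffold were set beside the neighbours of the same symbol in the RefSeq annotation of the pigeon assembly bColLiv1.pat.W.v2, which holds 1 gene per symbol. Of the 24 models, 18 shared at least 1 neighbour with RefSeq. The other 6 were both OTOF models, CACNA1D CLIV_020383, CTBP2 CLIV_010199 and the PCLO models CLIV_016412 and CLIV_018807. The main OTOF model had only 1 named neighbour on scaffold 1023, and CACNA1D CLIV_020383 had none, so the check says little about either. OTOF CLIV_015742, CTBP2 CLIV_010199 and PCLO CLIV_016412 had 6 named neighbours each and PCLO CLIV_018807 had 5. None of these was shared, so the check did not bear out these names, which rest on the deposited annotation alone.

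Otoferlin, the large calcium-binding protein of C2 domains that serves vesicle fusion in hair cells, had by far the highest level of the 10 genes. Its main model, CLIV_019819 on scaffold 1023, stood at 1193 ± 560 FPKM (mean ± SD, n = 18 libraries) and at place 54 of the 20918 models by mean FPKM. In hair cells with cuticulosomes the lowest, median and highest values were 151, 1356 and 1947 FPKM, and in hair cells without cuticulosomes they were 589, 1212 and 1904 FPKM. The ranges overlapped over most of their width, with only the libraries with cuticulosomes of pigeons 435 (151 FPKM) and 450 (299.9 FPKM) below the whole range of the cells without the organelle. The same birds held the lowest values without cuticulosomes, 745 FPKM in pigeon 435 and 589 FPKM in pigeon 450. Within single libraries the model took places 14 to 649 with cuticulosomes (median 52) and 16 to 199 without (median 44).

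Set within birds, OTOF was lower with cuticulosomes in 5 of 9 birds and higher in 4. The paired difference on the log2(FPKM + 1) scale was -0.32 ± 0.22 (SE, 95% interval -0.80 to 0.15) with p = 0.166 in limma, and p = 0.348 by sign-flip permutation (exact, two-sided). The group means (± SD, n = 9 birds each) were 1160 ± 640 FPKM in cells with the organelle and 1227 ± 504 FPKM in cells without it. The difference rested on pigeon 435: without that bird it was -0.08, and without pigeons 435 and 450 it was 0.05, the other sign. Relative to the summed hair cell markers of the same library it was -0.20 (exact sign-flip permutation test, p = 0.383). The part of the markers in the result was not tested further. The other model with this name, CLIV_015742 on scaffold 958, was listed at 0 in 16 of 18 libraries and reached at most 0.278 FPKM.

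SLC17A8, the vesicular glutamate transporter that fills hair cell vesicles in the mouse, came next. CLIV_014613 on scaffold 43 had 585 ± 308 FPKM over the 18 libraries and ranked 161 of all models. With cuticulosomes its lowest, median and highest values were 78.1, 661 and 1023 FPKM, and without cuticulosomes 156, 649 and 980 FPKM. Again the pair of lowest libraries were those with cuticulosomes of pigeons 435 (78.1 FPKM) and 450 (87.7 FPKM), and elsewhere the groups overlapped. The value was lower with cuticulosomes in 7 of 9 birds, all but pigeons 434 and 514. The paired log2 difference was -0.47 ± 0.27 (SE, 95% interval -1.05 to 0.11), with p = 0.104 in limma and p = 0.199 in the exact sign-flip permutation test. Without pigeon 514, where the value was 680 FPKM with and 310 FPKM without cuticulosomes, the difference was -0.67 and passed an unadjusted threshold of 0.05 in limma, and without pigeon 435 it was -0.21. Without pigeons 435 and 450 it was -0.12 (limma, unadjusted and not past 0.05).

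The ratio of OTOF to SLC17A8 was read in each library. OTOF was the higher in every library, by 1.33 to 3.42 times with cuticulosomes (median 2.20) and by 1.35 to 3.77 times without (median 1.90). The ratio did not differ between the cell types beyond the spread of the birds (mean paired log2 difference of SLC17A8 over OTOF -0.15, exact sign-flip permutation test, p = 0.430).

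**Figure D1:**
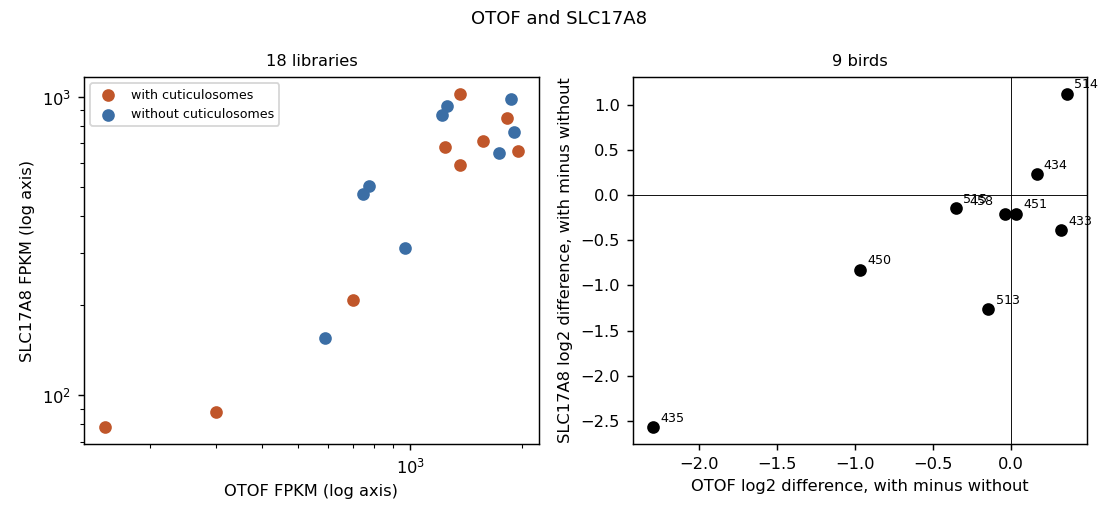
OTOF and SLC17A8, with FPKM of both genes in 18 libraries on log axes at the left and the paired log2(FPKM + 1) difference, with minus without cuticulosomes, in 9 birds at the right, each point labelled with the pigeon. The libraries with cuticulosomes of pigeons 435 and 450 lie at the low end of both genes, and pigeon 435 has the largest difference of both, -2.30 for OTOF and -2.58 for SLC17A8.

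The paired differences of both genes were compared across the 9 birds, together with those of the hair cell and supporting cell marker sums, 3 relations in all. OTOF and SLC17A8 differences had a Pearson r of 0.85 (permutation test, p = 0.00683, adjusted p = 0.0205) and a Spearman rho of 0.68 (permutation test, p = 0.0503, adjusted p = 0.151). Without pigeons 435 and 450, the birds farthest from the median OTOF difference, r was 0.54 over 7 birds, so the relation rests in good part on these 2. The OTOF difference and that of the hair cell marker sum had r = 0.79 (permutation test, p = 0.0248, adjusted p = 0.0372) and rho = 0.12 (permutation test, p = 0.776, adjusted p = 0.776). There r was -0.59 over 7 birds without the same 2, so the r of 0.79 rests on these 2 birds. They were chosen by their OTOF difference, and the 7 birds left cover a narrow range of it. Whether this relation holds therefore cannot be decided here. With the supporting cell sum r was -0.50 and rho -0.58 (permutation tests, p = 0.164 and 0.108, adjusted p = 0.164 and 0.162), and r was -0.05 without the same birds. No flow cell holds more than 3 birds, too few for a correlation within it.

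The calcium channel genes stood far lower. CACNA1D encodes the pore-forming subunit of the L-type channel of hair cells, and CACNB2 a cytoplasmic beta subunit that brings the pore to the membrane. The mean of OTOF was 152 times that of CACNA1D CLIV_016238 and 268 times that of CACNA1D CLIV_016237, both on scaffold 1373, on the FPKM scale, which is per length of transcript.

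CACNA1D CLIV_016238 had lowest, median and highest values of 0, 5.40 and 14.3 FPKM with cuticulosomes and 0, 7.56 and 16 FPKM without. It was listed at 0 in the library with cuticulosomes of pigeon 514 and in the library without cuticulosomes of pigeon 450, and above 2 FPKM in the other 16. CLIV_016237 had 0.0842, 1.5 and 9.98 FPKM with and 0.830, 5.48 and 7.94 FPKM without cuticulosomes. The values with cuticulosomes reached further at both ends in this model (SD 3.72 FPKM with and 2.42 FPKM without). This difference in spread was not tested. In 5 of 9 birds the value was lower with cuticulosomes. The paired log2 differences were -0.06 ± 0.56 for CLIV_016238 (limma, p = 0.919, exact sign-flip permutation test, p = 0.871) and -0.71 ± 0.55 for CLIV_016237 (limma, p = 0.220, exact sign-flip permutation test, p = 0.191). The sign of the first changed to above 0 under upper quartile scaling (0.11), without flow cell 3 (0.49) and relative to the hair cell markers (0.07). CLIV_020383, alone on scaffold 1153, was listed at 0 in all 9 libraries without cuticulosomes and above 0 in 4 libraries with them, where its highest value was 1.76 FPKM. It exceeded 1 FPKM in only 2 libraries, and the exact sign-flip permutation test gave p = 0.125. The share of all models with such a split was not computed, so no difference between the cell types is read from it.

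CACNB2 was split over CLIV_016703 and CLIV_016704, which had like means of 13.7 and 13.2 FPKM over the 18 libraries. CLIV_016703 ran from 0.235 to 32.5 FPKM with cuticulosomes (median 13.6) and from 2.28 to 39.7 FPKM without (median 10.9). CLIV_016704 ran from 0 to 24.0 FPKM with (median 13.0) and from 5.55 to 25 FPKM without (median 12.8). The low end of both models was the library with cuticulosomes of pigeon 450, in which the deposited FPKM of neither exceeded 0.235. The paired log2 differences were -0.05 ± 0.49 (limma, p = 0.920, exact sign-flip p = 0.922) and -0.49 ± 0.52 (limma, p = 0.358, exact sign-flip p = 0.441). Without pigeon 450 the second was -0.08. The first turned above 0 in 4 of the 9 fits that leave out a bird, among them the fit without pigeon 450, and in 5 other settings given with the alternatives. CACNB2 CLIV_016703 was highest in pigeon 434 in both cell types, at 32.5 and 39.7 FPKM.

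Of the ribbon and its scaffold, the CTBP2 model CLIV_010706 varied least between libraries and BSN had the lowest level. CTBP2 encodes both a nuclear corepressor and, from another promoter, RIBEYE, the main protein of the ribbon, and the table gives a single value per gene model, so the 2 products cannot be told apart. CLIV_010706 on scaffold 153 had 53.9 ± 18.1 FPKM over the 18 libraries, with 22.3, 45.8 and 88.3 FPKM (lowest, median, highest) with cuticulosomes and 39.8, 48.9 and 72.3 FPKM without. Its coefficient of variation, 33.7%, was the smallest of the 24 models, against 46.9% for OTOF. The SD was 23.7 FPKM with and 11.5 FPKM without cuticulosomes, and the means were 55.2 and 52.5 FPKM. The paired log2 difference was -0.02 ± 0.27 (95% interval -0.60 to 0.55, limma, p = 0.930, exact sign-flip p = 0.930). Its sign turned under both scalings of the libraries (0.16 and 0.01), so no direction can be given, and the interval leaves room for a change of up to about 0.6 on the log2 scale either way. In the library with cuticulosomes of pigeon 435, where OTOF and SLC17A8 were lowest, CTBP2 CLIV_010706 stood at 36.7 FPKM against 44.4 FPKM without cuticulosomes.

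The other model named CTBP2, CLIV_010199 on scaffold 636, whose name the neighbour check did not bear out, behaved unlike it. It was above 8 FPKM in 12 libraries and at or below 0.629 FPKM in the other 6, with no value between. It lay below CLIV_010706 in all 18 libraries. Both libraries of pigeon 450 were among the low ones (0.629 and 0.345 FPKM), as were both of pigeon 514 (0 and 0.0518 FPKM), while pigeon 513 was at 0 with and at 16.8 FPKM without cuticulosomes and pigeon 515 at 8.68 FPKM with and at 0 without. The 6 libraries of flow cell 1 all held 16.9 FPKM or more. The paired log2 difference was -0.31 ± 0.60 (limma, p = 0.612, exact sign-flip p = 0.559).

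Piccolo (PCLO) and bassoon (BSN) are large, related scaffold proteins, and bassoon anchors the ribbon to the membrane in the mouse. BSN CLIV_012094 on scaffold 625 was listed at 0 in 10 of 18 libraries and reached at most 1.79 FPKM, in the library with cuticulosomes of pigeon 458. It did not pass the filter of a mean above 1 FPKM, so it was not fitted in limma. Its mean paired log2 difference was 0.10, with 3 birds higher and 2 lower with cuticulosomes (exact sign-flip permutation test, p = 0.8125). Of the 6 PCLO models 2 passed it. CLIV_012290 on scaffold 366, the model that carries the zinc finger domain, was at 0.261 FPKM or less in 7 libraries and between 1.84 and 28.0 FPKM in the other 11.

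The split of PCLO CLIV_012290 did not follow the cell type. Pigeons 433 and 451 had it above 1 FPKM in both libraries (13.7 and 15.5 FPKM with, 17.3 and 20.9 FPKM without cuticulosomes), and pigeon 514 in neither. Pigeons 434, 450 and 515 had it only without cuticulosomes (25.4, 28.0 and 8.61 FPKM), and pigeons 458 and 513 only with them (17.3 and 16.2 FPKM), while pigeon 435 held 1.84 FPKM with and 14.6 FPKM without. In 7 of 9 birds the cells with cuticulosomes held less of it, among them pigeon 514, near 0 in both libraries (0.0191 FPKM with and 0.261 FPKM without). The paired log2 difference was -0.85 ± 0.89 (95% interval -2.74 to 1.04, limma, p = 0.355, exact sign-flip permutation test, p = 0.453). The difference was -0.35 without pigeon 450, -1.48 without pigeon 458, -0.07 without flow cell 1 and -0.05 without pigeons 435 and 450.

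The second tested PCLO model, CLIV_012291, ran from 0 to 4.45 FPKM with and from 0 to 4.16 FPKM without cuticulosomes, with a paired log2 difference of -0.08 ± 0.39 (limma, p = 0.850, exact sign-flip p = 0.543). The 4 PCLO models that failed the filter had mean values of 0.0358 to 0.810 FPKM. Their highest value was 6.15 FPKM for CLIV_012292, in the library with cuticulosomes of pigeon 514, the bird in which CLIV_012290 was under 1 FPKM in both libraries.

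**Figure D2:**
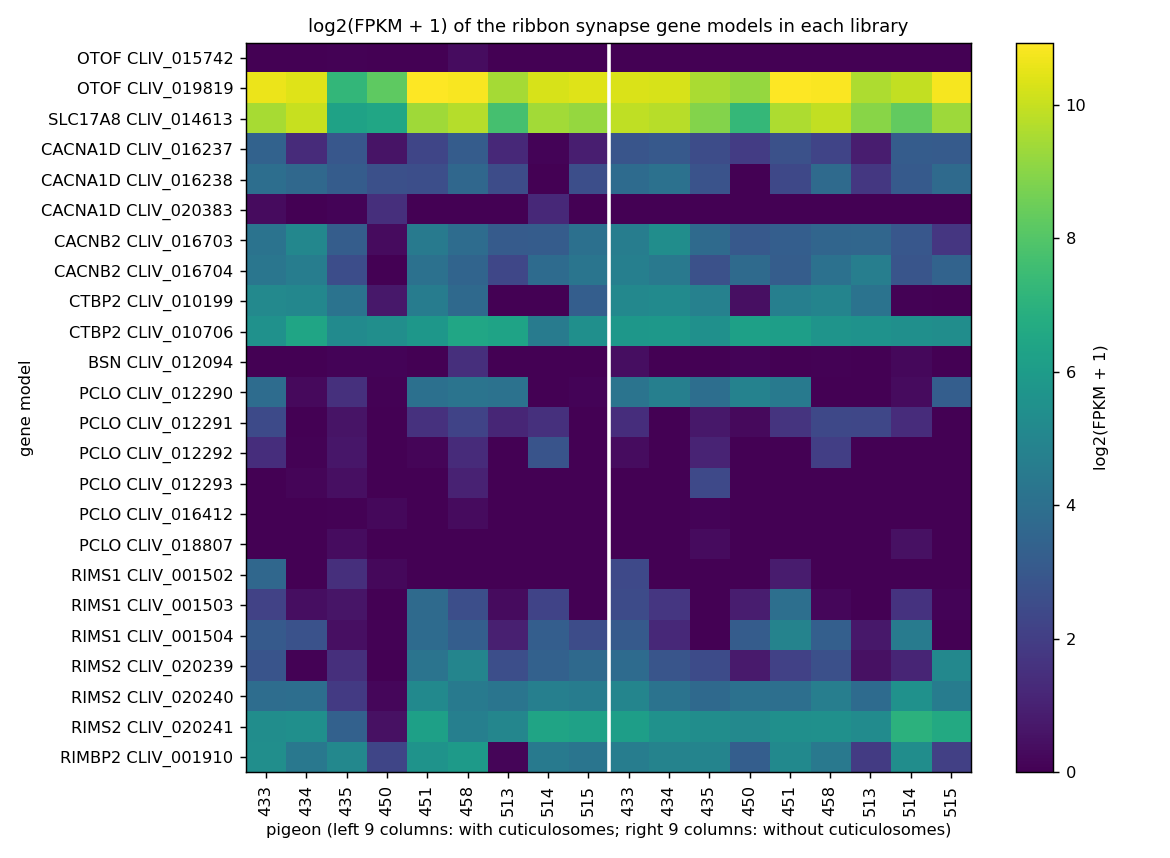
Ribbon synapse gene models in each library, as log2(FPKM + 1) by colour, with the 24 models in rows and the 18 libraries in columns, the 9 with cuticulosomes left of the white line and the 9 without right of it. OTOF, SLC17A8 and CTBP2 CLIV_010706 are above 1 FPKM in every library, CTBP2 CLIV_010199 and PCLO CLIV_012290 are near 0 in 6 and 7 libraries, and the library with cuticulosomes of pigeon 450 has the fewest models above 1 FPKM.

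Among the 10 genes, of which 17 models were tested, RIMS2 held the only difference past an unadjusted p of 0.05. At this threshold in limma, 3.27% of all models tested were higher and 2.01% lower with cuticulosomes. A single model among 17 does not stand out from these shares. RIMS proteins dock vesicles and tether calcium channels at release sites, and RIMBP2 links RIMS to the channels. The 3 RIMS2 models had mean levels of 51.2 FPKM (CLIV_020241), 19.5 FPKM (CLIV_020240) and 8.43 FPKM (CLIV_020239). CLIV_020241 was above CLIV_020240 in all 18 libraries, so the order of these parts of the gene was the same in both cell types. The annotation gives a PDZ and a C2 domain to CLIV_020240 and a C2 domain to CLIV_020239, and none to CLIV_020241.

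RIMS2 CLIV_020241 had 0.413, 40.1 and 83.4 FPKM (lowest, median, highest) with cuticulosomes and 34.5, 44.2 and 130.2 FPKM without. The library with cuticulosomes of pigeon 450 was the lowest at 0.413 FPKM, that of pigeon 435 followed at 9.55 FPKM, and the remaining libraries with cuticulosomes held 25.1 FPKM or more and overlapped those without. The value was lower with cuticulosomes in 8 of 9 birds. Pigeon 451 was the exception, at 72.9 FPKM with and 41.9 FPKM without. The means were 42.2 ± 29.5 FPKM and 60.1 ± 33.4 FPKM (SD, n = 9 birds). The paired log2 difference was -0.97 ± 0.44 (95% interval -1.90 to -0.04), with p = 0.0423 in limma and p = 0.0469 in the exact sign-flip permutation test. Neither passed the adjustment over all 11393 models tested (Benjamini-Hochberg adjusted p = 0.902 in limma and 0.939 for the exact test).

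The difference of RIMS2 CLIV_020241 was smaller without pigeons 435 and 450. It was -0.51 without pigeon 450, -0.85 without pigeon 435 and -0.31 without both, and in none of these fits did it pass an unadjusted threshold of 0.05 in limma. It passed that threshold in 4 of the 9 fits that leave out a bird, since it also missed it without pigeon 433, 458 or 514. Of the 13 other settings fitted with limma it passed in 3, which were the filter on at least 9 libraries, median ratio scaling and robust variances. Relative to the summed hair cell markers it was -0.84 (exact sign-flip permutation test, p = 0.0547). By flow cell the mean paired differences were -0.94, -1.55 and -0.42, below 0 in all 3, but the first 2 lean on the same birds. In flow cell 2 pigeon 450 was at -4.65, and pigeons 451 and 458 were at 0.79 and -0.79. In flow cell 1 pigeon 435 was at -1.94, and pigeons 433 and 434 were at -0.75 and -0.12. Pigeon 450's library with cuticulosomes was the shallowest, at a relative depth of 0.505 against 1.08 for its partner. The part of depth in the difference was not tested.

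RIMS2 CLIV_020240 had 0.141, 17.8 and 35.8 FPKM with and 12.2, 17.1 and 44.7 FPKM without cuticulosomes, and again pigeons 450 (0.141 FPKM) and 435 (2.65 FPKM) were lowest. Its paired log2 difference was -0.71 ± 0.47 (limma, p = 0.153, exact sign-flip p = 0.195), and it was -0.09 without these 2 birds. CLIV_020239 had 0, 6.25 and 30.2 FPKM with and 0.423, 4.73 and 33.8 FPKM without. Its paired difference was above 2 in 4 birds and below -0.7 in the other 5, with a mean of 0.20 ± 0.64 (limma, p = 0.759, exact sign-flip p = 0.762). All 3 birds of flow cell 1 were lower with cuticulosomes, while flow cells 2 and 3 each held 2 birds that were higher (flow cell means -1.61, 1.2 and 0.998). Its interaction with flow cell, the strongest among the members, had an adjusted p = 0.994 in limma.

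**Figure D3:**
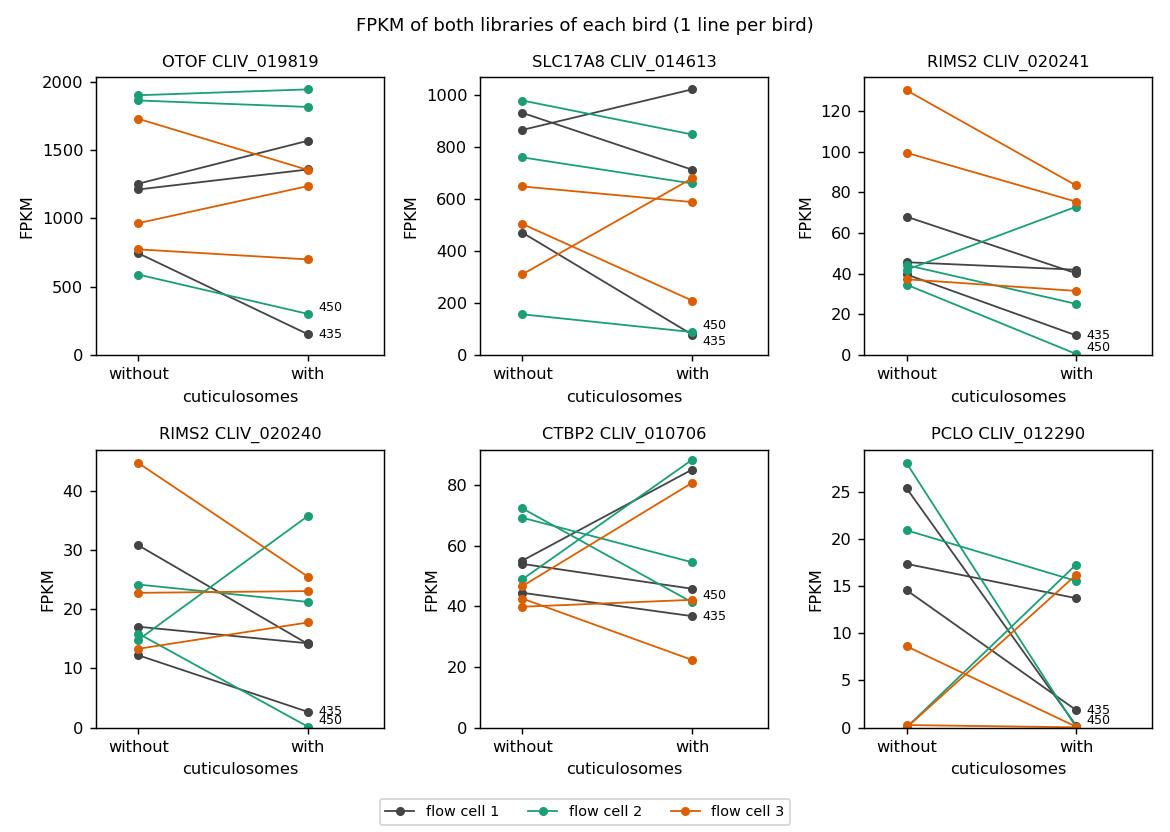
FPKM of 6 gene models in both libraries of each bird, without cuticulosomes at the left and with cuticulosomes at the right of each panel, 1 line per bird coloured by flow cell and with pigeons 435 and 450 labelled. RIMS2 CLIV_020241 is lower with cuticulosomes in 8 of 9 birds, OTOF in 5 of 9, and the lines of CTBP2 CLIV_010706 and PCLO CLIV_012290 cross.

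RIMBP2 CLIV_001910 on scaffold 20 had 24.3 ± 17.0 FPKM over the 18 libraries. It ran from 0.103 to 60.3 FPKM with cuticulosomes (median 21.5) and from 2.69 to 40.3 FPKM without (median 23.6). The ranges overlapped, and both libraries of pigeon 513 were the lowest of their groups. The paired log2 difference was 0.11 ± 0.43 (limma, p = 0.797, exact sign-flip p = 0.785), and its sign turned with a pseudocount of 0.1 (-0.10).

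RIMS1 stood lower than RIMS2. CLIV_001504 had a mean of 7.06 FPKM and lowest, median and highest values of 0.0513, 5.68 and 13.2 FPKM with and 0, 7.51 and 28.3 FPKM without cuticulosomes. CLIV_001503, with the PDZ and C2 domains, was above 1 FPKM in 8 libraries and highest in pigeon 451, at 12.7 FPKM with and 15.1 FPKM without cuticulosomes. The same bird had the highest value of CLIV_001504 in both cell types (13.2 and 28.3 FPKM), so these 2 parts of the gene were high together there. CLIV_001502 was listed at 0 in 13 libraries and was highest in pigeon 433, at 11.7 FPKM with and 4.33 FPKM without, and it passed the filter only through that bird. The paired log2 differences of the 3 models were -0.08, 0.13 and 0.24, with p = 0.898, 0.758 and 0.375 in the exact sign-flip permutation test.

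**Figure D4:**
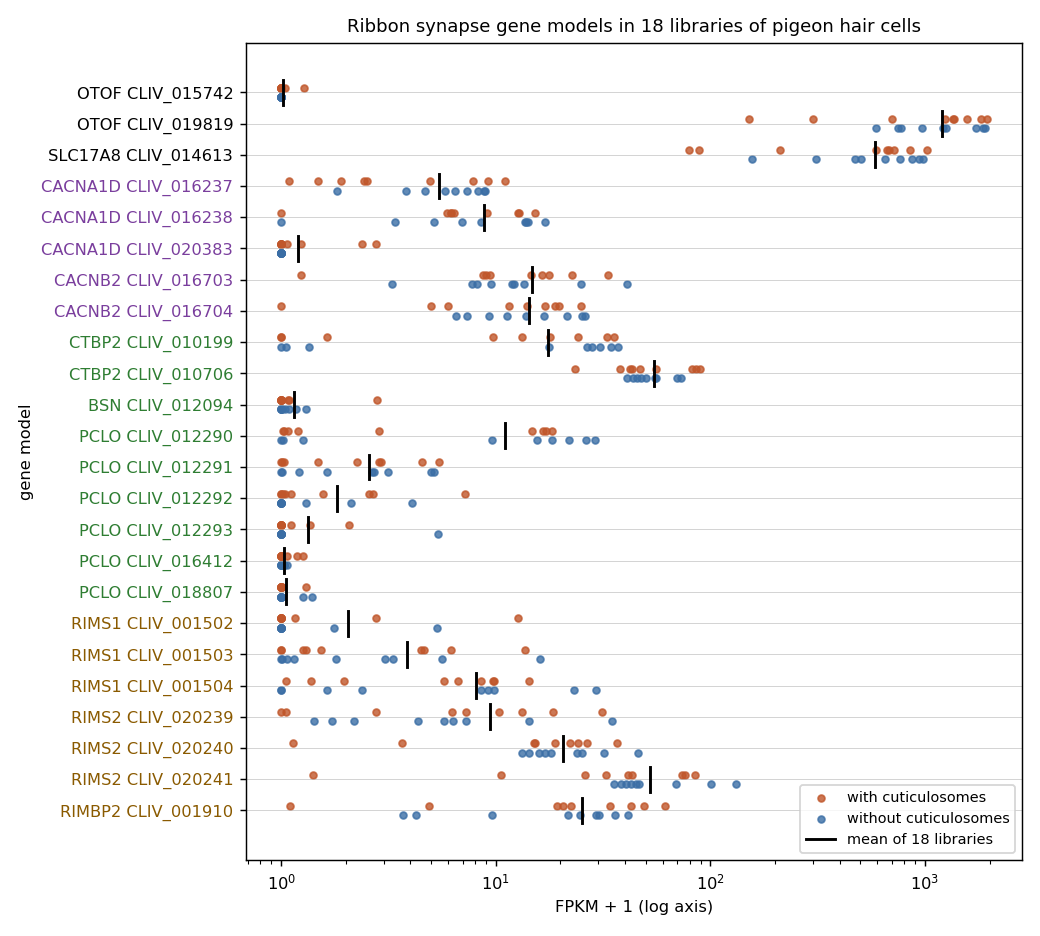
Level of all 24 ribbon synapse gene models, as FPKM + 1 on a log axis, with 1 point per library (orange with, blue without cuticulosomes), a black bar at the mean of 18 libraries and the names coloured by role. OTOF at 1193 FPKM and SLC17A8 at 585 FPKM stand above all others, of which the next is CTBP2 CLIV_010706 at 53.9 FPKM.

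In order of mean FPKM the 17 models above the filter ran from OTOF through SLC17A8, CTBP2 CLIV_010706, RIMS2 CLIV_020241 and RIMBP2 down to RIMS1 CLIV_001502 at 1.04 FPKM. Neighbours in this order were compared over the 9 birds by the exact sign-flip permutation test, 16 pairs in all. The order was taken from the same libraries, so these p-values are given as a description. Parts of split genes stand as separate models, so the order is one of models and not of genes. OTOF was above SLC17A8 in 9 of 9 birds by 1.12 on the log2 scale, and SLC17A8 above CTBP2 CLIV_010706 in 9 of 9 birds by 3.17. Both gave p = 0.0039, the smallest the exact test can give, and an adjusted p of 0.0313. CTBP2 CLIV_010706 and RIMS2 CLIV_020241 did not differ beyond their spread (exact test, p = 0.422). RIMS2 CLIV_020241 was above RIMBP2 in 7 of 9 birds, with p = 0.0430 in the exact test and an adjusted p of 0.188. None of the other 12 pairs of neighbours passed an unadjusted p of 0.05.

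Over the whole comparison, 17 of the 24 models, from 9 of the 10 genes, were tested. With a Benjamini-Hochberg adjusted p under 0.05 in limma, 0 of the 17 were called in either direction, as were 0.0% of the 11393 models tested. The study's own DESeq2 test on counts, with the bird as a block, did call genes in both directions after adjustment. At an unadjusted limma p under 0.05, 1 member was lower with cuticulosomes (RIMS2 CLIV_020241) and 0 were higher, against 2.01% of all models lower and 3.27% higher. By the exact sign-flip permutation test the same 1 model passed p of 0.05, where 1.89% of all models were lower and 2.90% higher. Lower in 7 or more of 9 birds were 3 members, SLC17A8, PCLO CLIV_012290 and RIMS2 CLIV_020241, against 6.27% of all models. The adjusted limma p of the members ran from 0.902 to 0.995.

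The log2 difference was below 0 for 13 of the 17 models and above 0 for 4, while 46.1% of all models tested were below 0. The median was -0.08 over the members and 0.05 over all models. The libraries with cuticulosomes were the shallower ones in most birds, and the part of depth in these signs was not tested. Models of the same gene are not independent of each other, and 5 of the 17 signs turned without flow cell 2 and 4 without pigeons 435 and 450. The 95% intervals of 4 members lay within -1 and 1, so for the other 13 a 2-fold change on the log2(FPKM + 1) scale lies inside the interval in at least 1 direction. This scale understates the fold change of genes with low FPKM. The interaction of cell type and flow cell gave an unadjusted limma p of 0.131 to 0.998 for the members, none under 0.05, against 4.55% of all models.

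**Figure D5:**
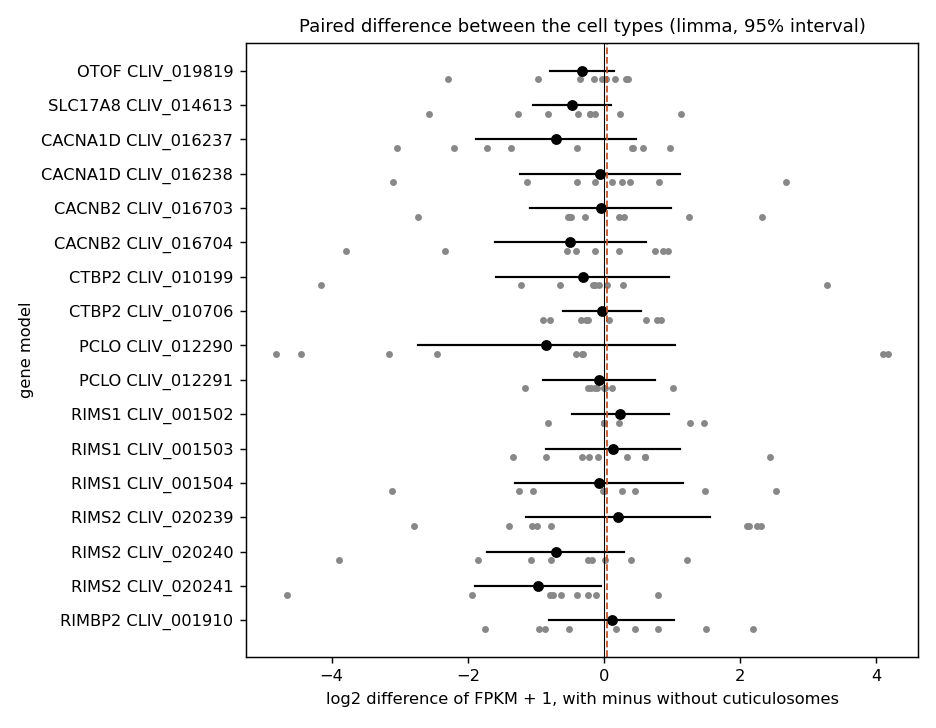
Paired log2(FPKM + 1) difference, with minus without cuticulosomes, of the 17 tested models, with black points and lines for the limma estimate and its 95% interval, grey points for the 9 birds and a dashed line at the median of all models tested, 0.05. Only the interval of RIMS2 CLIV_020241, -1.90 to -0.04, leaves out 0, and the signs of the estimates near 0 change with the processing.

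The genes whose pattern over the 18 libraries was most like OTOF were found by Pearson correlation of log2(FPKM + 1), given as a description. Among the 5 most alike were SLC34A2 (r = 0.95), a phosphate transporter, TMPRSS3 (r = 0.94), a protease whose loss causes deafness in human and mouse, AP3B2 (r = 0.94), a subunit of a neuronal vesicle adaptor, and CLIV_003090 (r = 0.94), which has no annotated name. Depth and the hair cell marker sum differed between libraries, and their part in these r was not tested. Without the libraries with cuticulosomes of pigeons 435 and 450, over 16 libraries, these 4 models had r of 0.77 to 0.83. SLC17A8 was 7th of all models over 18 libraries (r = 0.91) and 20th over 16 (r = 0.79). The next member was RIMS2 CLIV_020240 in place 102 (r = 0.76), and CTBP2 CLIV_010706 (r = 0.23) and CACNA1D CLIV_016237 (r = 0.21) followed OTOF least closely together with RIMS1 CLIV_001502 (r = -0.03), PCLO CLIV_012290 (r = 0.21) and CACNA1D CLIV_016238 (r = 0.22).

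Close relatives of the members were set beside them. SLC17A6 and SLC17A7, the vesicular glutamate transporters of neurons, were listed at 0 in all 18 libraries, whereas SLC17A8 was above 78 FPKM in each. CACNB1 and CACNB3 were likewise listed at 0 in all 18, and CACNB4 reached at most 0.417 FPKM, so CACNB2 was the only one of these beta subunit genes above 1 FPKM in any library. A value of exactly 0 in FPKM says only that the model is listed so. Of the 4 models of CACNA1C, the L-type pore of heart and brain, the highest single value was 7.13 FPKM, and none had a mean above 0.498 FPKM. CTBP1 had 33.1 ± 26.0 FPKM (SD, n = 9 birds) with and 22.3 ± 18.3 FPKM without cuticulosomes, higher with them in 7 of 9 birds (limma, p = 0.156, exact sign-flip permutation test, p = 0.172). RIMS3 had a mean of 5.58 FPKM and RIMS4 of 0.0931 FPKM.

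Further genes of the synapse were read from 6 lists, and 0 of their models had an adjusted p under 0.05 in limma. At an unadjusted p under 0.05 in limma, 3.27% of all models tested were higher with cuticulosomes and 2.01% lower. By the exact sign-flip permutation test these shares were 2.90% and 1.89%. The models named below for an unadjusted p are to be read beside these shares. Of the active zone scaffold and priming list 29 models were tested, 13 above and 16 below 0, with a median of -0.04. Its highest gene was APBA1, an adaptor, at 169 FPKM. The models below 0 include CAST CLIV_010631 (log2 difference -0.91). Its annotated domain, PF00748, is that of calpain inhibitors and not of an active zone scaffold. The one model past an unadjusted p of 0.05 in limma was ERC2 CLIV_017189, of the ELKS scaffold family, at 24.7 ± 16.1 FPKM with and 13.2 ± 9.52 FPKM without cuticulosomes (log2 difference 0.96 ± 0.44, limma, p = 0.0472, exact sign-flip p = 0.0391, 6 of 9 birds higher). ERC2 was split over 4 tested models, whose log2 differences were 0.96, 0.80, -0.04 and 1.04. The second, CLIV_016224, was higher in 8 of 9 birds (limma, p = 0.103, exact sign-flip p = 0.0195).

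Of the other calcium channel subunits and regulators 15 models were tested, 11 above and 4 below 0, with a median of 0.29 against 0.05 for all models, and 0 passed an unadjusted p of 0.05 in limma. Its highest gene was CABP1, a calcium-binding regulator of the channel, at 106 FPKM (lowest 10.9, highest 226 FPKM). The alpha-2-delta gene CACNA2D1, named after its values were seen, had 2 models. CLIV_012296 was at 15.5 ± 14 FPKM with and 22.5 ± 13.4 FPKM without cuticulosomes and lower with them in 8 of 9 birds (log2 difference -0.78 ± 0.41, limma, p = 0.0748, exact sign-flip p = 0.0156), while CLIV_012297 had a log2 difference of -0.22 ± 0.65.

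The synaptic vesicle and glutamate list had 20 tested models, 12 above and 8 below 0, with a median of 0.16. RAB3IP, an exchange factor for a Rab family, was highest at 588 FPKM. RAB3B CLIV_000224 and RAB3A CLIV_000225, which carry consecutive numbers on scaffold 7, had log2 differences of 1.36 ± 0.55 and 1.24 ± 0.52 (limma, p = 0.0245 and 0.0285, exact sign-flip p = 0.0156 and 0.0313). They were listed at 0 in 7 and 8 of the 18 libraries, and the names may stand for parts of 1 gene or for paralogs between which reads could be divided. The other RAB3A model, CLIV_007089, was higher at 49.1 FPKM and had a log2 difference of -0.19 ± 0.39 (limma, p = 0.623, exact sign-flip p = 0.637).

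The SNARE list had 30 tested models, 15 on each side of 0, with a median of -0.06. VAMP7, a vesicle SNARE, was highest at 187 FPKM, and SNAP25, the neuronal membrane SNARE, stood at 35.0 FPKM. STXBP5L CLIV_005291, a tomosyn family member that binds syntaxin, was the only one past an unadjusted p of 0.05, with 6.88 ± 7.23 FPKM with and 1.88 ± 4.92 FPKM without cuticulosomes (log2 difference 1.53 ± 0.56, limma, p = 0.0153, exact sign-flip p = 0.0391, 7 of 9 birds higher). The study had picked this gene from the same libraries, where its DESeq2 test on counts called it higher after adjustment. Of the endocytic list 33 models were tested, 16 above and 17 below 0, with a median of -0.03 and HSPA8, the chaperone that uncoats vesicles, highest at 3326 FPKM. Of the ferlin and tail-anchored insertion list 4 models were tested, all of insertion factors, with GET4 at 65.8 FPKM, WRB at 44.9 FPKM, CAMLG at 27.4 FPKM and ASNA1 at 6.22 FPKM and log2 differences of -0.17 to 0.09.

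The labelled cell type was read from its markers. TMC2, a transduction channel gene, had 1039 FPKM and was above 98 FPKM in all libraries, and PCDH15 had 28.6 and 24.7 FPKM on its 2 models. The symbols MYO7A, POU4F3 and TUBB3 matched no model by this rule. The supporting cell markers SOX2 and GFAP were listed at 0 in 13 and 17 of 18 libraries. The supporting cell list as a whole was not at 0, with 20 of its 30 models at a mean above 1 FPKM and a sum of 289 to 4512 FPKM with and 268 to 2527 FPKM without cuticulosomes. Of the neuron markers, NEFL CLIV_012488 had 228 FPKM and was above 54 FPKM in all libraries, while NEFM was listed at 0 in 8 libraries and above 1 FPKM in 3. In the afferent neuron list 16 of the 32 models had a mean above 1 FPKM. The list's sum ran from 838 to 1813 FPKM with and from 930 to 1633 FPKM without cuticulosomes. BSN, PCLO, RIMS1 and RIMS2 are known from neurons too, and the part of afferent endings in their values was not tested. No marker list differed between the cell types beyond the spread of the birds (exact sign-flip permutation tests of the sums, p = 0.0742 to 0.746, adjusted p over 6 lists 0.445 to 0.746).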

How the data were processed

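RNA of 30 pooled hair cells with and 30 without cuticulosomes from each of 9 pigeons was sequenced by a full-length protocol with amplified cDNA, as 18 libraries. The authors aligned the reads with TopHat 1.4.1 to the Columba livia genome, whose build name is not given in the sources used here. The authors kept reads with a single alignment, so that near-identical copies lose reads, estimated FPKM with Cufflinks 1.3.0 and its bias correction, counted reads with HTSeq 0.6.1p1 and compared the cell types with DESeq2 1.10.1, the bird as a block. The deposited table holds FPKM per library and, from the authors' own comparison, a mean signal, a log2 fold change with its error, a Wald score, a p-value and an adjusted p-value, none of which was used.

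The FPKM were used as deposited, and since no counts per library were used, no count model was fitted. Gene models with a mean FPKM above 1, 11393 in all, were tested with limma 3.58.1 in R 4.3.3 on log2(FPKM + 1), with a block for the bird, a pseudocount of 1, an intensity trend and Benjamini-Hochberg adjustment at 0.05. The 512 sign patterns of the 9 paired differences gave the exact sign-flip permutation test of single values, which is two-sided. The rest was done in Python 3.11.15 with matplotlib 3.10.9, scipy 1.17.1, pandas 2.3.3 and numpy 2.4.6. The limma, sign-flip and depth steps were tested on simulated data. The limma simulation set every model at a higher level than in these libraries, so it does not speak for models near 0. The libraries pair by the bird number in their labels, and the deviations of a bird's libraries from their group means correlated by 0.121 to 0.591 (median 0.183). Each bird is a separate biological replicate, and no pair of libraries held identical values. Scaffolds are those of the deposited annotation.

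The members and lists were chosen with earlier results of these data known. Named are all members, the models of each list with an unadjusted p under 0.05 and its highest model, the 5 models most like OTOF, paralogs of the members and defining cell type markers, of which 1 model like OTOF and 2 markers are not reported here. Alternatives were no block, flow cell in place of the bird, no filter, FPKM above 1 in at least 9 libraries, a pseudocount of 0.1, upper quartile and median ratio scaling, no trend, robust variances, medians, and each bird or flow cell left out. Leaving out pigeons 435 and 450 and values relative to hair cell markers were added after seeing the data.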

Additional observations from a re-analysis of the deposited data

Results flagged for a closer look

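In each cell type the highest and the lowest library of every tested member was compared with its nearest neighbour by Dixon's ratio on log2(FPKM + 1). This covered 34 groups of 9 libraries at the 95% critical value, and 5 values stood apart. Chance alone gives about 1 in 20 groups where the values are normal. RIMS1 CLIV_001502, listed at 0 in 6 libraries with and 7 without cuticulosomes, departs from that. CACNA1D CLIV_016238 was listed at 0 FPKM in the library with cuticulosomes of pigeon 514, against a group median of 5.40 FPKM. In the library with cuticulosomes of pigeon 450, CACNB2 CLIV_016703 had 0.235 FPKM against a median of 13.6 FPKM, and CACNB2 CLIV_016704 was at 0 FPKM against a median of 13.0 FPKM. RIMS1 CLIV_001502 was far above the other birds in pigeon 433, at 11.7 FPKM with and 4.33 FPKM without cuticulosomes, where both group medians were 0.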

How the results depend on the processing

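In every setting 0 gene models passed an adjusted p of 0.05 in limma, in either direction. This holds for limma on log2(FPKM + 1), whereas the study's DESeq2 test on counts did call genes. At an unadjusted p under 0.05 the main fit held 372 higher and 229 lower models, and the other settings 182 to 682 higher and 108 to 262 lower. Without the replicate block, with the pairing by bird ignored, 0 models were called, and 182 were higher and 113 lower at an unadjusted p. All 17 members had the direction of the paired fit, but this was fixed in advance. Every bird gave both libraries, so leaving out the block changes the error and not the log2 difference. The median of all models was 0.05, and upper quartile scaling moved it to 0.19. The log2 difference of these members turned its sign. With a pseudocount of 0.1 it was 0.23 for RIMS1 CLIV_001504, -0.14 for RIMS2 CLIV_020239 and -0.10 for RIMBP2. With upper quartile scaling it was 0.11 for CACNA1D CLIV_016238, 0.08 for CACNB2 CLIV_016703 and 0.16 for CTBP2 CLIV_010706, all below the shifted median. With median ratio scaling it was 0.01 for CTBP2 CLIV_010706. Without flow cell 1 it was 0.14 for CACNB2 CLIV_016703. Without flow cell 2 it was 0.12 for CACNB2 CLIV_016703, 0.01 for CTBP2 CLIV_010706, -0.04 for RIMS1 CLIV_001503, 0.58 for RIMS1 CLIV_001504 and -0.30 for RIMS2 CLIV_020239. Without flow cell 3 it was 0.49 for CACNA1D CLIV_016238, 0.06 for PCLO CLIV_012291 and -0.20 for RIMS2 CLIV_020239. Without pigeons 435 and 450 it was 0.05 for OTOF, 0.40 for CACNB2 CLIV_016703, 0.12 for CTBP2 CLIV_010706 and 0.28 for RIMS1 CLIV_001504. Relative to the hair cell markers it was 0.07 for CACNA1D CLIV_016238, 0.08 for CACNB2 CLIV_016703, 0.10 for CTBP2 CLIV_010706, 0.05 for PCLO CLIV_012291 and 0.05 for RIMS1 CLIV_001504. The cause was not tested. RIMS1 CLIV_001502 failed the filter under median ratio scaling, without flow cell 1 and without pigeon 433, and with RIMS1 CLIV_001503 under the filter on at least 9 libraries, so these settings gave no value for them. Medians in place of means moved the levels both ways. The level of RIMS1 CLIV_001502 went from 1.04 to 0 FPKM, and that of RIMS1 CLIV_001503 from 2.85 to 0.669 FPKM. RIMS2 CLIV_020239 went from 8.43 to 5.28 FPKM, while OTOF rose from 1193 to 1246 FPKM and SLC17A8 from 585 to 655 FPKM.

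With each bird left out in turn, the differences that changed sign ran from -0.40 to 0.32 for CACNA1D CLIV_016238, -0.35 to 0.29 for CACNB2 CLIV_016703, -0.76 to 0.17 for CTBP2 CLIV_010199, -0.13 to 0.09 for CTBP2 CLIV_010706, -0.21 to 0.06 for PCLO CLIV_012291, -0.16 to 0.31 for RIMS1 CLIV_001503, -0.40 to 0.30 for RIMS1 CLIV_001504, -0.06 to 0.57 for RIMS2 CLIV_020239 and -0.15 to 0.35 for RIMBP2. The other members kept their sign. OTOF ran from -0.41 to -0.08, SLC17A8 from -0.67 to -0.21 and RIMS2 CLIV_020241 from -1.19 to -0.51. The reads behind each value are unknown, so how far depth limits a member was not tested.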
